A study of Mus musculus with 20 samples.

Results

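The 34 genes described here code for proteins that bring glucose into the heart muscle cell, break it down by glycolysis, store it as glycogen and feed its pyruvate into oxidation. Their rows were taken by gene symbol, and all 34 were found among the 24059 genes of the count tables. By role, 4 act in glucose entry, 7 in the upper and 7 in the lower steps of glycolysis, 2 are lactate dehydrogenase subunits, 3 are subunits of the pyruvate dehydrogenase complex, 4 set that complex's activity and 7 serve glycogen. Of these, 32 passed the filter on low counts and were tested, among 14007 genes in all.

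RNA was sequenced from the left ventricular free wall of adult male C57BL/6 mice of about 9 to 13 weeks, perfused with Tyrode solution after removal of the heart. All 4 groups carry floxed alleles of Nr3c1, the glucocorticoid receptor gene (GRfl/fl). The controls, named GRflox, carry nothing further, and the CardioGRKO littermates also carry 1 copy of a Cre recombinase (alphaMHCCre/+) whose alpha myosin heavy chain promoter is active in cardiomyocytes. Each genotype was sampled at ZT0, the start of the light phase, and at ZT12, the start of the dark phase, with 5 libraries per group. No group carried Cre without floxed alleles, so loss of the receptor and presence of Cre cannot be told apart. The wall also holds endothelial cells, fibroblasts, pericytes and macrophages, which this Cre does not target. In bulk tissue of this kind, fewer cells of a type and less RNA per cell cannot be told apart.

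Glucose enters the cardiomyocyte through facilitative transporters, is trapped as glucose 6-phosphate by hexokinase, and from there either is stored as glycogen or runs through glycolysis to pyruvate. Pyruvate is exchanged with lactate by lactate dehydrogenase or enters the mitochondrial pyruvate dehydrogenase complex, which kinases switch off and phosphatases switch on again. The adult heart draws most of its energy from fatty acids and uses glucose, lactate and its own glycogen as flexible further fuels, and glucocorticoids are known in muscle and liver for their effects on glucose use and glycogen.

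The libraries held 5854462 to 37648421 counts (median 23223656), and the 34 genes together took 2.27% to 2.501% of them. Replicates are numbered, with no word on which animal each came from, so p-values measure the spread between libraries, which may be technical. Nr3c1 was lower in every CardioGRKO library than in any GRflox library, at 55.1 ± 3.51 against 115 ± 6.11 CPM (counts scaled to library size, mean ± SD, n = 5) at ZT0 and 51.0 ± 3.50 against 107 ± 7.98 CPM at ZT12. Markers of cardiomyocytes, such as Myh6, Tnnt2 and Ryr2, were high everywhere: the 10 listed summed to 123752 to 128993 CPM in GRflox and 108867 to 117350 CPM in CardioGRKO at ZT0, and to 128920 to 133064 against 107291 to 121679 CPM at ZT12. Of these 10, 6 passed the test as lower in CardioGRKO at ZT0 and 8 at ZT12, with none higher, and of 10 endothelial markers 6 were lower at ZT0 and 5 at ZT12, beside 7.35% and 10.7% of all genes tested. Of 10 pericyte and smooth muscle markers, 1 (Acta2) was higher and 3 were lower at ZT0, and 1 was higher and 1 lower at ZT12. Of 8 skeletal muscle markers listed, only 4 passed the filter on low counts and were tested. Of these 4, 2 (Acta1 and Tnnt3) were higher at ZT0, and 2 (Acta1 and Mylpf) were higher and 1 lower at ZT12. Whether the list's level comes from skeletal muscle cells was not tested. The summed level of that list ran over 3039 to 3332 CPM in GRflox and 3527 to 4819 CPM in CardioGRKO at ZT0, and over 3078 to 3644 and 3214 to 5551 CPM at ZT12. No macrophage marker passed at either time, and 1 of 10 fibroblast markers, Col3a1, was higher at ZT12. Beside the counts of these lists, 7.36% of all genes tested were higher and 7.35% lower at ZT0, and 10.4% and 10.7% at ZT12. The macrophage and fibroblast counts are near or below these shares and so no result about those lists. The part of these lists in the results was not tested. The globin genes Hba-a1, Hba-a2, Hbb-bs and Hbb-bt had no count in any library. The other erythroid marker listed was counted, at 4.35 to 51.9 CPM in GRflox at ZT12. The treatment of reads that match several loci is not stated, so the missing globin counts give no level of blood. The shallowest library, CardioGRKO ZT0 replicate 1, stood apart from its group in overall expression, and the number in its deposited file differs from that of the other 19 libraries. GRflox ZT0 replicate 5 was the lowest of its group for 12 of the 14 genes of glycolysis and lactate dehydrogenase (median 9.16% below the group's median), and GRflox ZT12 replicate 4 the highest of its group for 11 of these 14 (median 6.44% above it). The genotype counts are given with and without these libraries.

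Per kilobase of transcript, the most abundant of the 34 was Gapdh, which makes the NADH of glycolysis, at 1894 CPM per kb over the 20 libraries. Aldoa, which splits fructose 1,6-bisphosphate, followed at 1864, with a range over libraries (1563 to 2139) that overlapped that of Gapdh (1554 to 2153). Ldhb, the lactate dehydrogenase subunit typical of heart, stood at 1483 CPM per kb, and its range (1312 to 1683) also overlapped that of Aldoa. Next came the muscle forms Pgam2 (911) and Eno3 (741), then Pkm (726) and the muscle glycogen phosphorylase Pygm (604), and the ranges of these neighbours overlapped as well (757 to 1055, 655 to 824, 660.1 to 791 and 511 to 661). The lowest of those tested were Slc2a1 (6.35), Pdp2 (7.65), Pgam1 (9.77) and Pdp1 (10.8), with ranges over libraries that overlapped from each to the next. For the paired isoforms, Pfkm held 91.4% ± 0.74 (SD, n = 5) of the summed level of Pfkm and Pfkl in GRflox at ZT0, and Pgam1 held 1.19% ± 0.195 of Pgam1 and Pgam2. The reference holds 2 pseudogenes named for Pgam1 and 0 for Pgam2, so reads that match several loci may shift the level and share of Pgam1. Aldoc, the brain aldolase, had 0 to 8 counts per library and was not tested. Eno1 had 0 counts in all 20 libraries. The tables also list Eno1b at 2 loci, 1 with 0 counts and 1 with 45 counts over all libraries. The treatment of reads that match several loci is not stated, so the 0 of Eno1 gives no level.

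Gys1, Ppp1r3c, Pdp2 and Slc2a1 are the 4 genes called with a change of at least 0.4 on the log2 scale between genotypes or times. They are shown by the 250 bases before their start sites, as is Pdk2, which did not reach that size and was added outside the rule. The heart's clock and the glucocorticoid receptor act on such sequence. These stretches are from RefSeq (GRCm38.p6). Each is written 5′ to 3′ on the gene's strand in lower case, with capitals for any match to the motifs searched on both strands.
Gys1 (chr7:45434589-45434838, plus strand): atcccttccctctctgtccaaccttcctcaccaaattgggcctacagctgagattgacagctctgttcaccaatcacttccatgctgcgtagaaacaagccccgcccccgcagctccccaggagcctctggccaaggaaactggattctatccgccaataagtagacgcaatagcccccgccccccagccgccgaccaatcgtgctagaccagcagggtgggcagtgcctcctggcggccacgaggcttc
Ppp1r3c (chr19:36736605-36736854, minus strand): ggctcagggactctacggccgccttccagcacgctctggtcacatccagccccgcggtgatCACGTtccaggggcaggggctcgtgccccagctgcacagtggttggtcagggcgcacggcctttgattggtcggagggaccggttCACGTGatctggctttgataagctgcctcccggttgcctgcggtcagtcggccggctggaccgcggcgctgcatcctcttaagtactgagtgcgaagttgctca
Pdk2 (chr11:95041372-95041621, minus strand): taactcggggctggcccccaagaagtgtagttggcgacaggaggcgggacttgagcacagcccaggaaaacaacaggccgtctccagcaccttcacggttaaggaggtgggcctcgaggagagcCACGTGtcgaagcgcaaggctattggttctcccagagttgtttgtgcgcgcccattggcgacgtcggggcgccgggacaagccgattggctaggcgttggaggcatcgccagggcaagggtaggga
Pdp2 (chr8:104591222-104591471, plus strand): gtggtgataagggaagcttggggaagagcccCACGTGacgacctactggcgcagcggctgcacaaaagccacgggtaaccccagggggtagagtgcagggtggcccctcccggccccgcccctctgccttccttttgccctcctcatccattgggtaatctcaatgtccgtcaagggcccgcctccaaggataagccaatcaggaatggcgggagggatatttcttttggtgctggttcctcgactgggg
Slc2a1 (chr4:119108495-119108744, plus strand): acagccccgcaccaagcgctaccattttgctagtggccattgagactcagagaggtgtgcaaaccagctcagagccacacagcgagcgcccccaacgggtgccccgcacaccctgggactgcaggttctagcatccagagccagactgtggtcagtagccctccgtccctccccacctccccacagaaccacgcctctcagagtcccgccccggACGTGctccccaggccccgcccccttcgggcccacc

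The motifs were the E-box CACGTG, which the clock factors BMAL1 and CLOCK bind, ACGTG, the core of hypoxia response elements, which lies inside every E-box, AGAACA, the hexamer that a single glucocorticoid receptor molecule binds, the receptor's palindrome (AGAACA and TGTTCT with 3 bases between them, which holds the hexamer), and the D-box core TTATGTAA. They were searched in 46 windows, each of 250 bases before and 50 after a start site, for 32 of the 34 genes. Slc2a4 and Pdp1 were not in the table. An E-box lay in 6 of the 46 windows (13.0%), those of Gyg, Ldha, Pdk2, Pdp2, Pfkm and Ppp1r3c, beside 7.15% of all 32851 windows. It began 104 bases before the start site of Ppp1r3c, 126 before the Pdk2 start site shown and 219 before that of Pdp2. RefSeq lists 2 start sites for Pdk2, and the window of the other held none of the motifs. ACGTG lay in 21 windows (45.7%) beside 19.6% of all, among them that of Slc2a1, 36 bases before the start. The hexamer lay in 8 (17.4%) beside 19.0%, and the palindrome and the D-box core in 0, beside 3 windows and 0.938% of all. The windows of these genes were also richer in G and C, with a median of 60.8% beside 52.7%. A match describes letters only and does not show binding.

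The comparison of genotypes asks how the ventricle without the cardiomyocyte receptor differed at each time. In CardioGRKO, glycogen synthase Gys1, the pyruvate dehydrogenase kinase Pdk2 and phosphatase Pdp2, the complex subunits Pdhb and Dlat, Ldhb, Aldoa and Pygm were lower at both times, and hexokinase Hk1 and the glycogen-targeting subunit Ppp1r3c were higher at both. At ZT0, 12 of the 32 tested passed an adjusted p of 0.05 in edgeR's quasi-likelihood test, 4 higher and 8 lower, beside 14.7% of all genes tested (7.36% higher, 7.35% lower). At ZT12, 17 of the 32 passed, 3 higher and 14 lower, beside 21.1% of all genes (10.4% higher, 10.7% lower). The shares of the 32 that passed, 37.5% and 53.1%, were above those of all genes. These genes were chosen with earlier results of these data known, so the excess is no test of the list. Changes were small: from 0.13 to 0.47 at ZT0 and from 0.14 to 0.54 at ZT12 on the log2 scale, disregarding sign. The median size over the 32 was 0.11 at ZT0 and 0.16 at ZT12, beside 0.12 and 0.13 for all genes. Signed, the median over the 32 was -0.0044 at ZT0 and -0.07 at ZT12, beside -0.0061 and 0.0042 for all genes. The libraries of both genotypes did not overlap for 8 of the 32 at ZT0 (11.9% of all genes) and for 11 at ZT12 (13.8%). Median changes of the 10 cardiomyocyte markers were -0.17 at ZT0 and -0.25 at ZT12, close in size to many of the falls given here. The 10 ranged from -0.38 to 0.12 at ZT0 and from -0.56 to 0.096 at ZT12. Without CardioGRKO ZT0 replicate 1 the count at ZT0 was 7 (2 higher, 5 lower: Hk1, Ppp1r3c, Aldoa, Ldhb, Pdhb, Pdk2 and Gys1). Without GRflox ZT0 replicate 5 it was 9 (2 higher, 7 lower), and without GRflox ZT12 replicate 4 the count at ZT12 was 14 (3 higher, 11 lower).

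**Figure D1:**
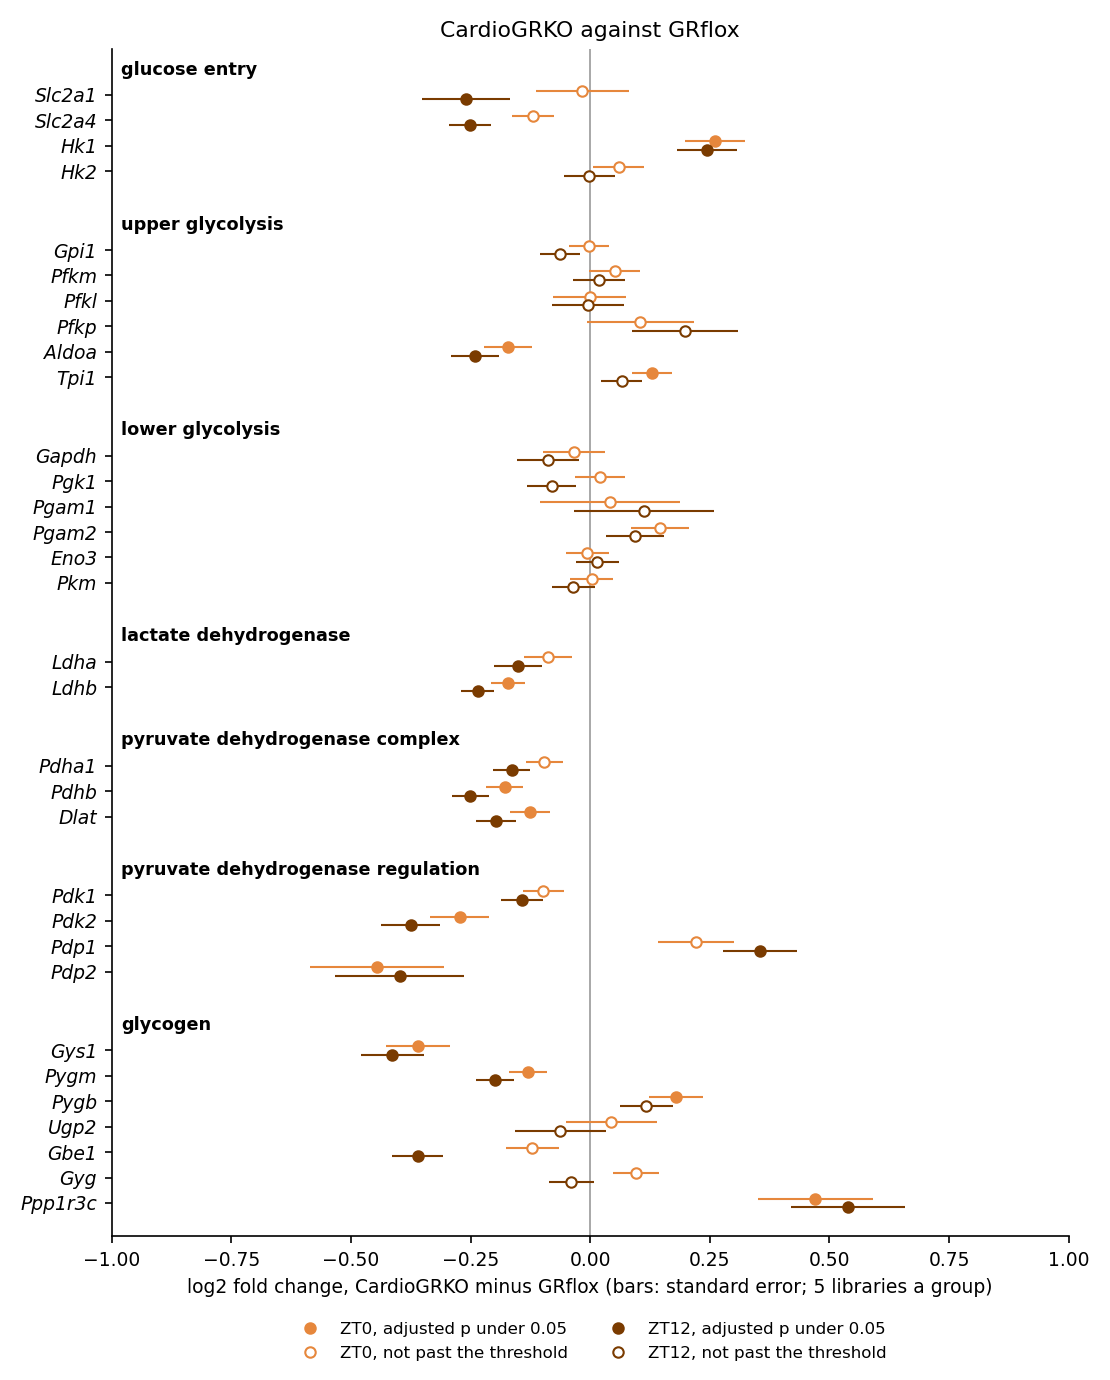
Log2 fold change of CardioGRKO against GRflox for the 32 genes tested, grouped by role (x axis, points; bars are the standard error, 5 libraries a group), at ZT0 and ZT12, with filled points where the adjusted p was under 0.05. Filled points are mostly left of 0 in the lactate dehydrogenase and pyruvate dehydrogenase rows and lie on both sides of 0 in the glycogen rows. Ppp1r3c lies farthest right (0.47 and 0.54), and no point of lower glycolysis is filled.

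Glucose entry differed by gene. Slc2a4 codes for GLUT4, the insulin-responsive transporter of muscle (Entrez gene 20528, chromosome 11, 69942286 to 69948216, minus strand in GRCm38). Slc2a4 stood at 478, 462, 454, 478 and 444 CPM in the GRflox libraries at ZT0 (replicates 1 to 5 in order, as in all such lists) and at 498, 563, 560.4, 501 and 524 CPM at ZT12. The CardioGRKO libraries held 417, 432, 428, 431 and 423 CPM of it at ZT0 and 426, 484, 426, 458 and 431 CPM at ZT12. The genotypes did not overlap at either time. The difference passed the test at ZT12 (-0.25 ± 0.04, adjusted p = 0.000175 in edgeR) and not at ZT0 (-0.12 ± 0.04, adjusted p = 0.0707). Slc2a1, which codes for the basal transporter GLUT1 (Entrez gene 20525, chromosome 4, 119108745 to 119137330, plus strand), was the less abundant, at 6.35 CPM per kb over all libraries beside 185 for Slc2a4. Its GRflox libraries had 15.6, 16.4, 15.4, 19.98 and 16.7 CPM at ZT0 and 25.1, 28.5, 30.7, 26.1 and 22.9 CPM at ZT12. Its CardioGRKO libraries had 21.6, 16.2, 14.0, 17.1 and 15.6 CPM at ZT0, where replicate 1 was the highest, and 22.1, 24.8, 23.5, 20.04 and 21.5 CPM at ZT12. The genotypes overlapped at both times. A fall in CardioGRKO at ZT12 passed narrowly (-0.26 ± 0.09, adjusted p = 0.0461) and was lost without GRflox replicate 2, 3 or 4 or CardioGRKO replicate 1, 3, 4 or 5, and without the filter on low counts or with libraries thinned to the shallowest (adjusted p up to 0.278 over all alternatives). At ZT0 the difference was -0.02 ± 0.10, adjusted p = 0.95.

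Hexokinase makes glucose 6-phosphate, with Hk1 the more widely expressed form and Hk2 the form typical of insulin-sensitive muscle. Hk1 (Entrez gene 15275, chromosome 10, 62268855 to 62379920, minus strand) read 372, 405, 399.8, 384 and 376 CPM in GRflox and 498, 421, 469.9, 469 and 463 CPM in CardioGRKO at ZT0. At ZT12 it read 345, 332, 376, 354 and 289.6 CPM in GRflox and 398, 418, 452, 384 and 359 CPM in CardioGRKO. Every CardioGRKO library was above every GRflox library at ZT0, while at ZT12 CardioGRKO replicate 5 fell within the range of GRflox. Hk1 was 1.20-fold higher at ZT0 (0.26 ± 0.06, adjusted p = 0.00607 in edgeR) and 1.18-fold higher at ZT12 (0.24 ± 0.06, adjusted p = 0.00649), and both calls held in every alternative run. Hk2 did not pass, at 0.06 ± 0.05, adjusted p = 0.531 and -0.0016 ± 0.05, adjusted p = 0.989, with 95% intervals of -0.05 to 0.17 and -0.11 to 0.10. As a share of both hexokinases per kilobase, Hk1 held 53.8%, 55.2%, 55.4%, 52.3% and 51.3% in GRflox and 60.1%, 55.6%, 56.9%, 56.7% and 55.9% in CardioGRKO at ZT0. At ZT12 these shares were 48.5%, 46.6%, 51.0%, 49.0% and 46.8% in GRflox and 55.7%, 51.9%, 53.3%, 52.1% and 50.4% in CardioGRKO. By its mean, the share was higher in CardioGRKO than in GRflox and lower at ZT12 than at ZT0, and the genotypes overlapped at ZT12 only. Reads of the overlapping gene Hk1os could have been counted with Hk1, since the use of strand in counting is not stated.

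In the body of glycolysis, calls are given by gene. Of the 6 tested in its upper steps, Aldoa fell at both times and Tpi1 rose at ZT0. These are 33.3% at ZT0 and 16.7% at ZT12, beside 14.7% and 21.1% of all genes. With 6 genes, such shares are no result about the upper steps as a group. Aldoa ran over 2758 to 3170.3 CPM in GRflox and 2361 to 2752 CPM in CardioGRKO at ZT0, and over 2923 to 3232 CPM and 2431 to 2848 CPM at ZT12, with no overlap at either time. The changes were -0.17 ± 0.05, adjusted p = 0.0209 and -0.24 ± 0.05, adjusted p = 0.00103 in edgeR, and the call at ZT0 was lost without GRflox replicate 1 or CardioGRKO replicate 4 or 5 (adjusted p up to 0.0821). Tpi1, which interconverts the triose phosphates, was higher at ZT0 (0.13 ± 0.04, adjusted p = 0.0403). That call ended without GRflox replicate 2, 3 or 5 or CardioGRKO replicate 1, 2, 3 or 5, and without the filter on low counts or with only the groups compared in the fit (adjusted p up to 0.119), and at ZT12 the difference was 0.07 ± 0.04, adjusted p = 0.302. Gpi1, Pfkm, Pfkl and Pfkp, which code for glucose phosphate isomerase and the phosphofructokinases, did not pass at either time. Of the 6 tested in the lower steps (Gapdh, Pgk1, Pgam1, Pgam2, Eno3 and Pkm), 0 passed at either time in edgeR and 0 in DESeq2. Over all genes 14.7% and 21.1% passed, so 0 of 6 is no result about these steps as a group. By unadjusted p under 0.05, only Pgam2 at ZT0 passed (0.15 ± 0.06, adjusted p = 0.109). The data bound these genes closely: the 95% interval was -0.09 to 0.09 at ZT0 and -0.12 to 0.05 at ZT12 for Pkm, the last enzyme of glycolysis, and -0.16 to 0.09 and -0.22 to 0.04 for Gapdh. Pgam1, with 124 to 812 counts per library, was less well bounded (-0.25 to 0.33 at ZT0). The reference holds pseudogenes named for Aldoa, Gapdh, Pgk1, Pgam1, Ldha and Ldhb, and reads that match them may be missing from or added to these genes.

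Both lactate dehydrogenase genes were lower in CardioGRKO, Ldhb at both times and Ldha, the form that favours lactate production, at ZT12. Ldhb fell from 2056 ± 57.5 to 1825 ± 28.6 CPM at ZT0 and from 2084 ± 65.2 to 1771 ± 56.5 CPM at ZT12 (SD, n = 5). No CardioGRKO library reached the lowest GRflox library at either time. The changes, -0.17 ± 0.03, adjusted p = 0.00127 and -0.24 ± 0.03, adjusted p = 2.19e-05 in edgeR, held in every alternative. Ldha differed by -0.09 ± 0.05, adjusted p = 0.265 at ZT0 and fell at ZT12 (-0.15 ± 0.05, adjusted p = 0.0328), where the call was lost without GRflox replicate 4 or CardioGRKO replicate 1, 2 or 5, and with only the groups compared in the fit or with libraries thinned to the shallowest (adjusted p up to 0.125). GRflox replicate 4, with 549 CPM of Ldha beside 459 to 478 CPM in the others, is among these libraries. The Ldha share of both genes per kilobase stayed low in all groups, at 13.9% to 14.98% in GRflox and 14.9% to 15.7% in CardioGRKO at ZT0 and 14.2% to 15.6% and 14.7% to 16.0% at ZT12, and these ranges overlapped.

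The pyruvate dehydrogenase complex turns pyruvate into acetyl-CoA. All 3 of its subunits listed were lower in CardioGRKO at ZT12, and Pdhb and Dlat were lower at ZT0. Pdhb, the beta subunit of the first enzyme, ran over 472 to 492 CPM in GRflox and 399 to 449.7 CPM in CardioGRKO at ZT0 and over 498 to 515 and 405 to 453 CPM at ZT12, with no overlap. It changed by -0.18 ± 0.04, adjusted p = 0.00234 and -0.25 ± 0.04, adjusted p = 3.84e-05 in edgeR, and both calls held in every alternative. Pdha1, the alpha subunit that carries the regulatory phosphorylation sites, differed by -0.10 ± 0.04, adjusted p = 0.0966 at ZT0 and -0.16 ± 0.04, adjusted p = 0.00285 at ZT12, with no overlap at ZT12. Dlat, the acetyltransferase core, changed by -0.13 ± 0.04, adjusted p = 0.0444 and -0.20 ± 0.04, adjusted p = 0.00131. Its call at ZT0 was lost without GRflox replicate 1, 2, 3 or 4 or CardioGRKO replicate 1, 2, 3 or 4, and without the filter on low counts, with only the groups compared in the fit or with libraries thinned to the shallowest (adjusted p up to 0.239). The 3 falls at ZT12, of 1.12- to 1.19-fold, stand beside a median of -0.25 on the log2 scale for the cardiomyocyte markers at that time. Those markers ranged from -0.56 to 0.096.

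The enzymes that set the complex's activity moved in both directions. Pdk2, the main kinase of the 2 listed, which switches the complex off, read 1200.1, 1155, 1115, 1283 and 1144 CPM in GRflox and 885, 957, 1046, 1022 and 969.5 CPM in CardioGRKO at ZT0. At ZT12 the levels were 1090.1, 1287, 1273, 1257 and 1303 CPM in GRflox and 974, 978, 820.1, 1062 and 956 CPM in CardioGRKO. The genotypes did not overlap at either time, though GRflox ZT12 replicate 1 lay well below its group. Pdk2 fell 1.21-fold at ZT0 (-0.27 ± 0.06, adjusted p = 0.0035 in edgeR) and 1.30-fold at ZT12 (-0.37 ± 0.06, adjusted p = 8.41e-05), and both calls held in every alternative. Pdk1, a kinase at 6.56% to 8.17% of the summed level of both in GRflox at ZT0, differed by -0.10 ± 0.04, adjusted p = 0.137 at ZT0 and -0.14 ± 0.04, adjusted p = 0.0193 at ZT12. The second call was lost without GRflox replicate 4 or 5 or CardioGRKO replicate 1, and with libraries thinned to the shallowest (adjusted p up to 0.11).

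The phosphatases that switch the complex on differed in opposite directions. Pdp1 (Entrez gene 381511, chromosome 4, 11958183 to 11966450, minus strand) read 41.8, 39.3, 34.9, 43.9 and 40.0 CPM in GRflox and 48.1, 41.0, 46.6, 50.8 and 46.4 CPM in CardioGRKO at ZT0, which overlapped. At ZT12 the values were 40.0, 47.1, 38.9, 42.1 and 40.4 CPM in GRflox and 48.6, 64.0, 47.7, 51.5 and 55.3 CPM in CardioGRKO, with every CardioGRKO library above every GRflox library. Pdp1 was higher at ZT12 (0.35 ± 0.08, adjusted p = 0.00171 in edgeR) in every alternative, and at ZT0 the difference was 0.22 ± 0.08, adjusted p = 0.0632. Pdp2 (Entrez gene 382051, chromosome 8, 104591472 to 104599026, plus strand) read 46.7, 35.4, 32.7, 61.3 and 49.3 CPM in GRflox, the widest spread of these groups, and 32.1, 26.0, 32.1, 37.9 and 36.7 CPM in CardioGRKO at ZT0. At ZT12 Pdp2 read 48.3, 57.3, 63.9, 50.1 and 53.4 CPM in GRflox and 35.0, 50.1, 44.3, 36.9 and 41.7 CPM in CardioGRKO. The genotypes overlapped at both times. Pdp2 was 1.36-fold lower at ZT0 (-0.45 ± 0.14, adjusted p = 0.033) and 1.32-fold lower at ZT12 (-0.40 ± 0.14, adjusted p = 0.0376). The first call was lost without GRflox replicate 1, 4 or 5 or CardioGRKO replicate 1, 2 or 3, and with only the groups compared in the fit or with libraries thinned to the shallowest (adjusted p up to 0.117). The second was lost without GRflox replicate 2, 3 or 5 or CardioGRKO replicate 1, 4 or 5, and in DESeq2 or with libraries thinned to the shallowest (adjusted p up to 0.13). Per kilobase, Pdp1 held 54.8%, 60.1%, 59.1%, 49.2% and 52.4% of both phosphatases in GRflox and 67.0%, 68.1%, 66.3%, 64.5% and 63.2% in CardioGRKO at ZT0. At ZT12 it held 52.9%, 52.7%, 45.2%, 53.2% and 50.6% in GRflox and 65.3%, 63.4%, 59.3%, 65.4% and 64.3% in CardioGRKO. The mean share of Pdp1 was thus 55.1% ± 4.56 in GRflox and 65.8% ± 1.98 in CardioGRKO at ZT0, and the genotypes did not overlap at either time.

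**Figure D2:**
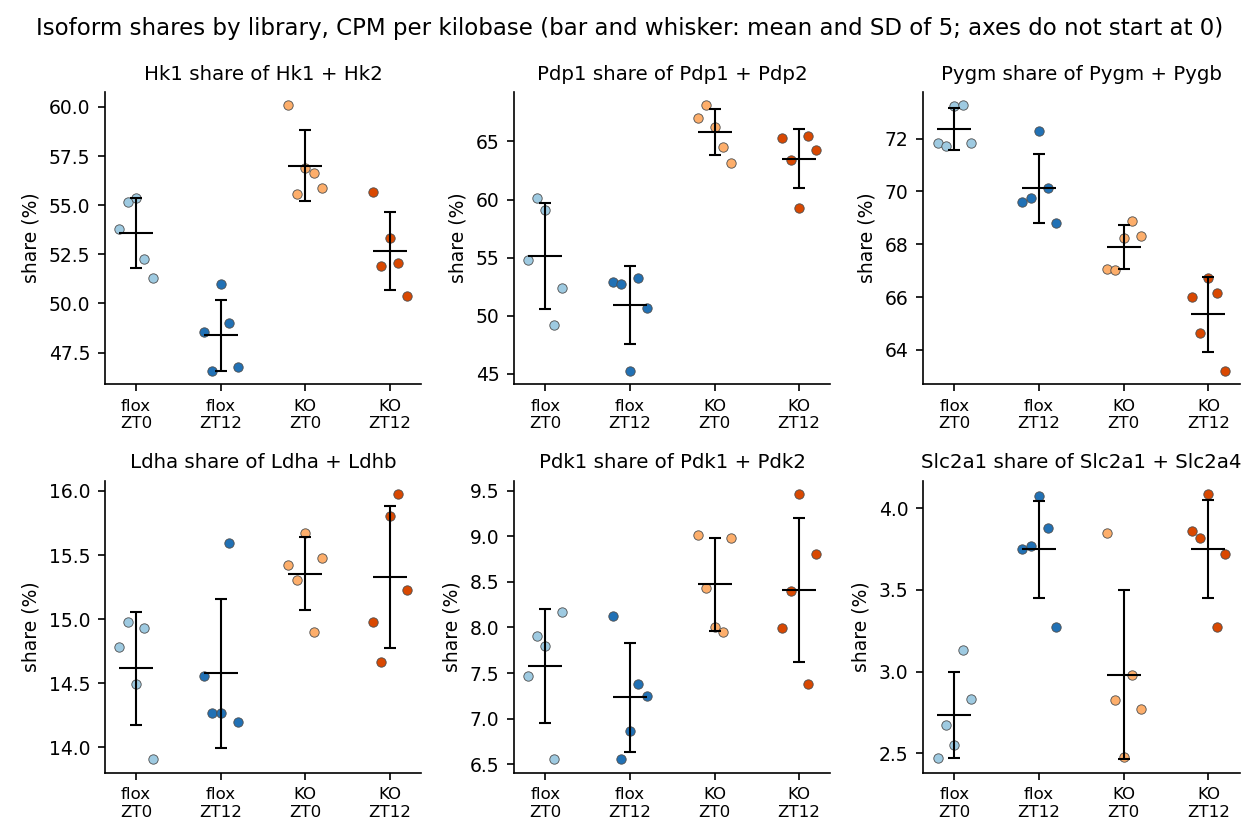
Share of the first-named gene in the summed level of an isoform pair, in percent of CPM per kilobase (y axes, which do not start at 0), for each of the 20 libraries in 4 groups (x axis; flox is GRflox, KO is CardioGRKO; bars are the mean and SD of 5). The Pdp1 share is higher and the Pygm share lower in every CardioGRKO library than in any GRflox library of the same time, while the Slc2a1 share is higher at ZT12, without overlap in GRflox and with overlap in CardioGRKO.

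Of the 7 glycogen genes, 4 passed at each time, 2 higher and 2 lower at ZT0 and 1 higher and 3 lower at ZT12. This is 57.1% of them at each time, beside 14.7% of all genes at ZT0 and 21.1% at ZT12. With 7 genes, such shares are no result about the glycogen genes as a group. Gys1, which codes for the glycogen synthase of muscle (Entrez gene 14936, chromosome 7, 45434839 to 45456617, plus strand), had 307, 307, 316, 302 and 274 CPM in the GRflox libraries and 222, 234, 247, 242 and 228 CPM in the CardioGRKO libraries at ZT0. At ZT12 it had 303, 262, 342, 315 and 308 CPM in GRflox and 219, 234, 249, 250.3 and 194 CPM in CardioGRKO. All CardioGRKO libraries lay below all GRflox libraries at each time. Gys1 fell 1.28-fold at ZT0 (-0.36 ± 0.07, adjusted p = 0.000512 in edgeR) and 1.33-fold at ZT12 (-0.41 ± 0.07, adjusted p = 5.95e-05), and both calls held in every alternative. The gene overlaps Ruvbl2, whose reads could have been counted with it. Its upstream bases, printed earlier, held none of the motifs searched.

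Ppp1r3c, which codes for a subunit that brings protein phosphatase to glycogen and so promotes its synthesis (Entrez gene 53412, chromosome 19, 36731731 to 36736604, minus strand), moved the other way. Its GRflox libraries had 210.5, 252, 281, 196 and 209.8 CPM at ZT0 and its CardioGRKO libraries 345, 372, 319, 259.7 and 300.3 CPM. At ZT12 the GRflox libraries had 179, 153, 215, 186 and 185 CPM and the CardioGRKO libraries 297, 203, 302, 309 and 223 CPM. Only 1 CardioGRKO library fell within the GRflox range at each time, replicate 4 at ZT0 and replicate 2 at ZT12. Ppp1r3c was 1.39-fold higher at ZT0 (0.47 ± 0.12, adjusted p = 0.00901 in edgeR) and 1.45-fold higher at ZT12 (0.54 ± 0.12, adjusted p = 0.00196), with both calls kept in every alternative. An E-box stands in its printed upstream bases, as in those of 1 of the 2 start sites of Pdk2, which fell.

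Gbe1, the branching enzyme, differed at ZT12 alone by the test. Its lowest, median and highest GRflox libraries had 60.8, 62.9 and 66.2 CPM at ZT0 and 68.2, 72.1 and 84.6 CPM at ZT12, beside 55.2, 57.0 and 63.7 CPM and 54.5, 58.1 and 59.4 CPM in CardioGRKO. The genotypes overlapped at ZT0 (-0.12 ± 0.05, adjusted p = 0.149) and not at ZT12 (-0.36 ± 0.05, adjusted p = 2.47e-05 in edgeR).

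Glycogen is broken down by phosphorylase, of which Pygm is the muscle and Pygb the brain form. Pygm read 1897, 1827, 1798, 1901 and 1725 CPM in GRflox and 1637, 1644, 1726, 1694 and 1659 CPM in CardioGRKO at ZT0, which overlapped. Its ZT12 levels were 1779, 1851, 1840.2, 1827 and 1888 CPM in GRflox and 1600.3, 1646, 1467, 1704 and 1586 CPM in CardioGRKO, which did not overlap. It fell at both times (-0.13 ± 0.04, adjusted p = 0.0289 and -0.20 ± 0.04, adjusted p = 0.000742 in edgeR), and the call at ZT0 was lost without GRflox replicate 1, 2 or 4 or CardioGRKO replicate 1, 2 or 5, and without the filter on low counts or with libraries thinned to the shallowest (adjusted p up to 0.11). Pygb read 1011, 979, 895, 944 and 921 CPM in GRflox and 1094, 1101, 1094, 1042 and 1046 CPM in CardioGRKO at ZT0, with no overlap. Its ZT12 levels were 1057, 1092, 960.4, 1057 and 1164 CPM in GRflox and 1120.4, 1226, 995, 1186 and 1256 CPM in CardioGRKO, with overlap. It rose at ZT0 (0.18 ± 0.06, adjusted p = 0.0317), a call lost without GRflox replicate 3, 4 or 5 or CardioGRKO replicate 1, 2 or 3 (adjusted p up to 0.0836), and at ZT12 differed by 0.12 ± 0.06, adjusted p = 0.146. The Pygm share of both per kilobase was 71.8%, 71.7%, 73.2%, 73.3% and 71.8% in GRflox and 67.0%, 67.0%, 68.2%, 68.9% and 68.3% in CardioGRKO at ZT0. At ZT12 it was 69.6%, 69.8%, 72.3%, 70.1% and 68.8% in GRflox and 66.0%, 64.6%, 66.7%, 66.2% and 63.2% in CardioGRKO. Both genotypes were apart at each time. Ugp2, which makes UDP-glucose, and Gyg, the primer glycogenin, did not pass at either time (0.04 ± 0.10 and -0.06 ± 0.09 for Ugp2, 0.10 ± 0.05 and -0.04 ± 0.05 for Gyg).

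**Figure D3:**
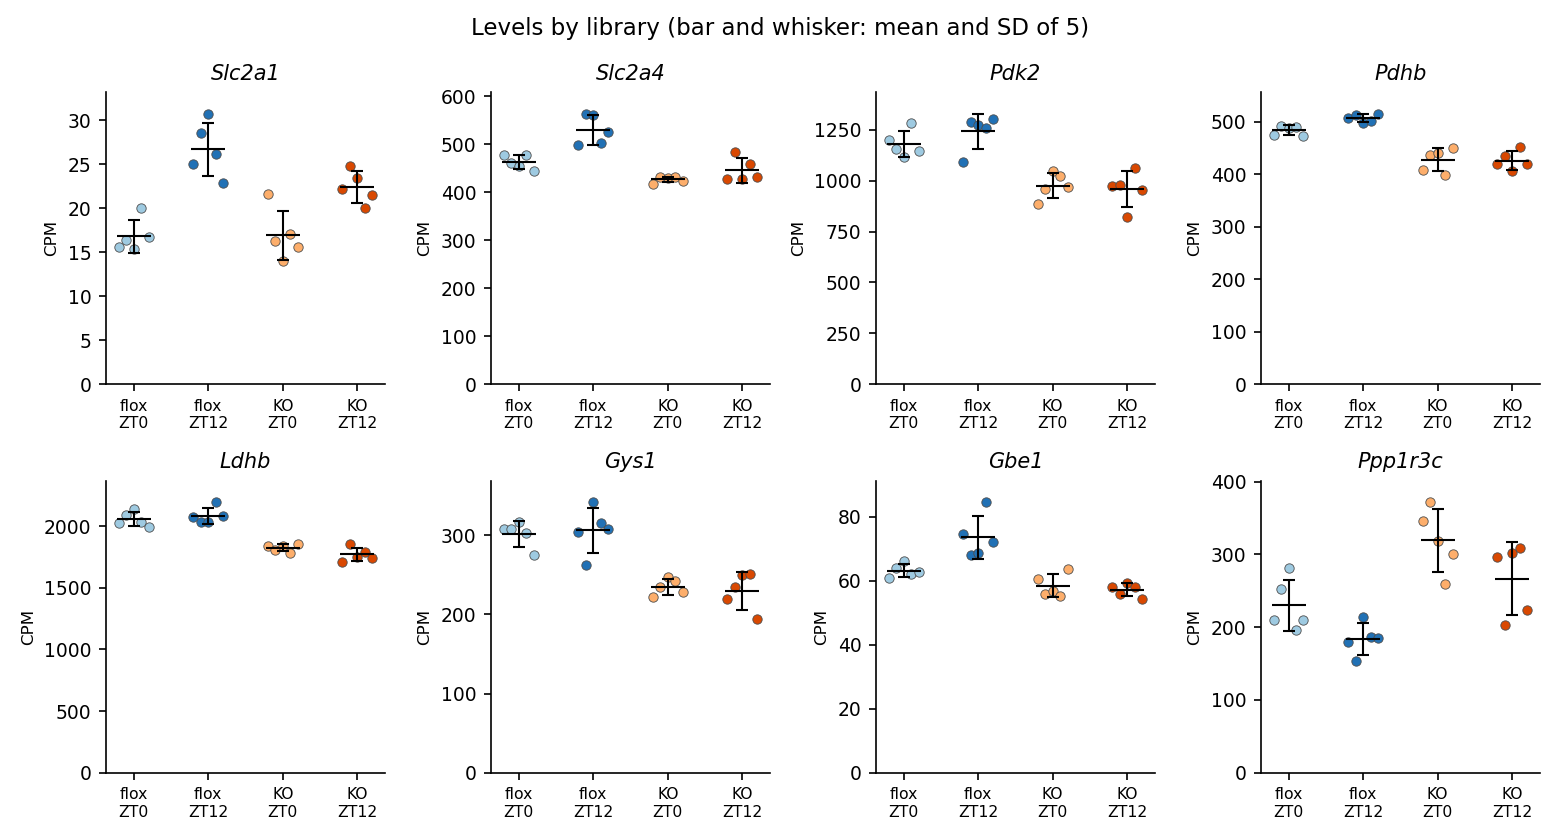
CPM in each of the 20 libraries (y axes from 0) for 8 genes, by group (x axis; flox is GRflox, KO is CardioGRKO; bars are the mean and SD of 5). Slc2a1 is higher at ZT12 in both genotypes, Pdk2, Pdhb, Ldhb and Gys1 separate the genotypes at both times, Gbe1 does so at ZT12, and Ppp1r3c is higher in CardioGRKO with 1 library within the GRflox range at each time.

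The comparison of times asks which genes differed between lights on and lights off in each genotype. In GRflox, Slc2a1, Slc2a4, Pygb and Gbe1 were higher and Hk1 was lower at ZT12. In CardioGRKO, Slc2a1 was higher and Hk1 lower. These are 5 of the 32 in GRflox (4 higher, 1 lower), beside 17.3% of all genes (8.13% higher, 9.17% lower), and 2 of the 32 in CardioGRKO, beside 9.17% of all genes (4.42% higher, 4.75% lower). Both shares, 15.6% and 6.25%, are near or below those of all genes, so the counts are no result about these genes as a group. The median size of change was 0.06 in GRflox and 0.05 in CardioGRKO, beside 0.12 and 0.10 for all genes. The libraries of both times did not overlap for 4 of the 32 in GRflox (12.5% of all genes) and for 0 in CardioGRKO (7.11%). The 4 genotype and time comparisons share libraries, so their values are given side by side only.

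Slc2a1 showed the widest difference by time. With the values listed above, every GRflox library at ZT12 lay above every one at ZT0, while in CardioGRKO replicate 1 at ZT0 lay within the range of ZT12. The rise was 1.60-fold in GRflox (0.68 ± 0.09, adjusted p = 1.26e-05 in edgeR) and 1.35-fold in CardioGRKO (0.44 ± 0.10, adjusted p = 0.00426), and both calls held in every alternative. Slc2a4 rose 1.14-fold in GRflox without overlap (0.19 ± 0.04, adjusted p = 0.00303), in every alternative too, and differed by 0.06 ± 0.04, adjusted p = 0.441 in CardioGRKO. As a share of both transporters per kilobase, Slc2a1 went from 2.73% ± 0.262 at ZT0 to 3.75% ± 0.295 at ZT12 in GRflox and from 2.98% ± 0.518 to 3.75% ± 0.3 in CardioGRKO. Those shares did not overlap between times in GRflox and did in CardioGRKO.

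Hk1 was lower at ZT12 in GRflox (-0.19 ± 0.06, adjusted p = 0.0386 in edgeR) and in CardioGRKO (-0.21 ± 0.06, adjusted p = 0.0397), with overlap in both. The call in GRflox was lost without ZT0 replicate 2, 3 or 4 or ZT12 replicate 1, 2 or 5 (adjusted p up to 0.123), and that in CardioGRKO without ZT0 replicate 1, 3, 4 or 5 or ZT12 replicate 1, 4 or 5, and with only the groups compared in the fit (adjusted p up to 0.103). Pygb was higher in GRflox (0.17 ± 0.06, adjusted p = 0.0414), a call lost without ZT0 replicate 2, 3, 4 or 5 or ZT12 replicate 1, 2, 4 or 5, and without the filter on low counts or with libraries thinned to the shallowest (adjusted p up to 0.129). Gbe1 rose 1.16-fold in GRflox without overlap (0.22 ± 0.05, adjusted p = 0.00599), and the call was lost with all libraries thinned to the shallowest (adjusted p = 0.166). The count in GRflox was therefore 3 without GRflox ZT0 replicate 2 or 3 or ZT12 replicate 1, 2 or 5, and that in CardioGRKO was 1 without CardioGRKO ZT0 replicate 1, 3, 4 or 5 or ZT12 replicate 1, 4 or 5. Ppp1r3c did not pass in either genotype (-0.32 ± 0.12, adjusted p = 0.0654 and -0.26 ± 0.12, adjusted p = 0.202), and nor did Pdp2 (0.29 ± 0.14, adjusted p = 0.152 and 0.34 ± 0.14, adjusted p = 0.144).

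**Figure D4:**
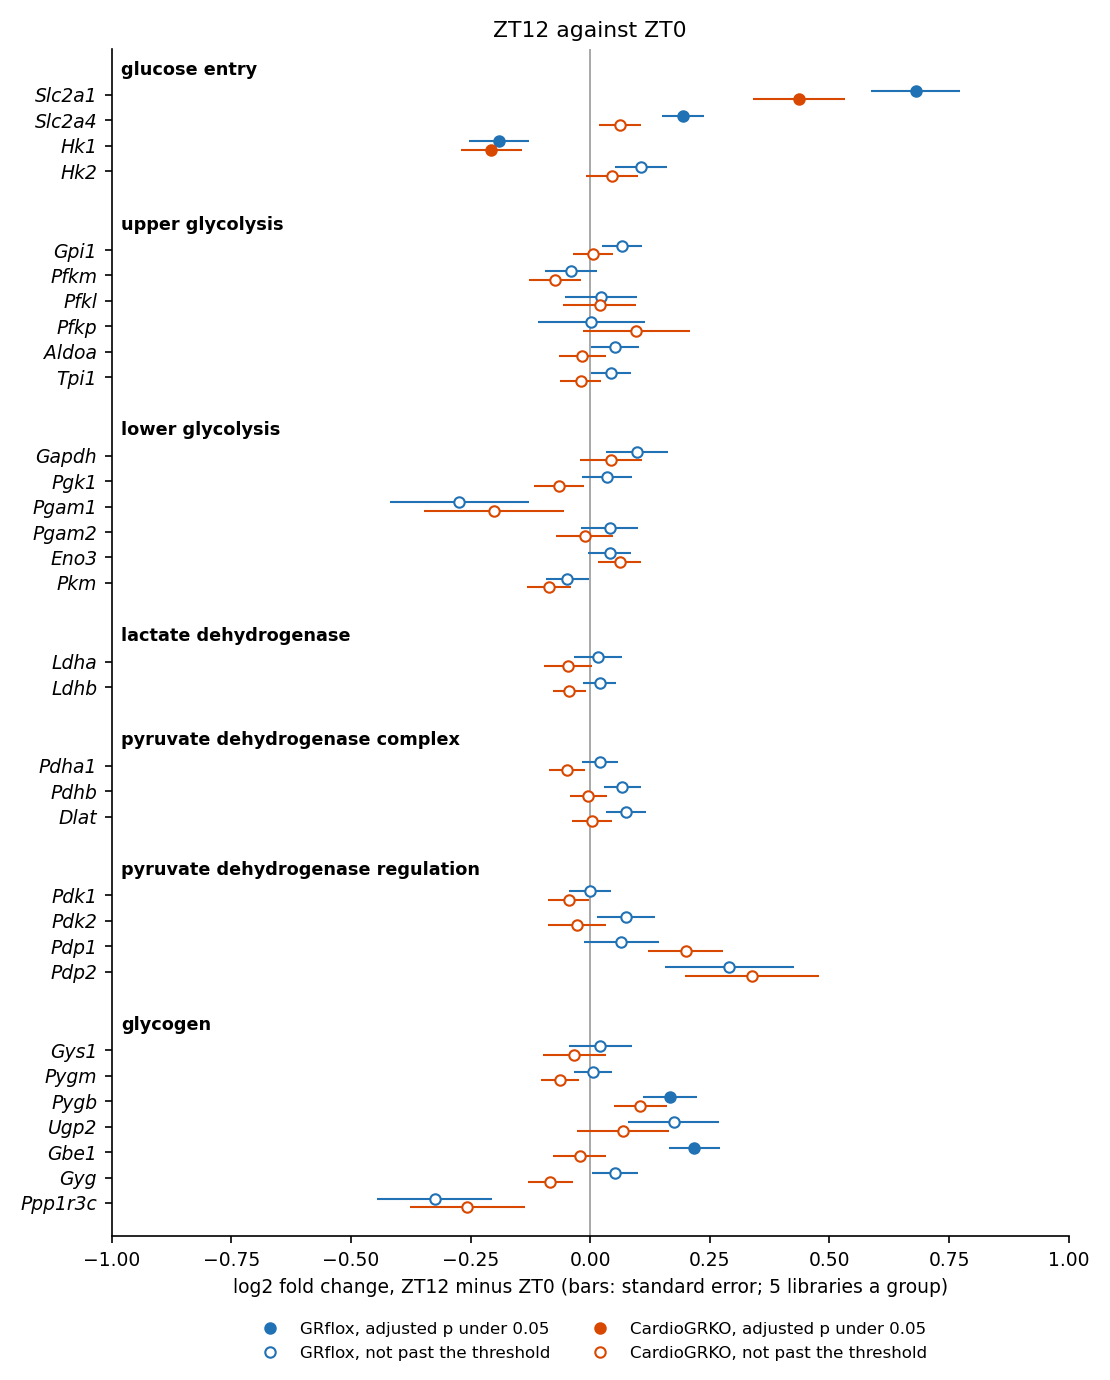
Log2 fold change of ZT12 against ZT0 for the 32 genes tested, grouped by role (x axis, points; bars are the standard error, 5 libraries a group), in GRflox and CardioGRKO, with filled points where the adjusted p was under 0.05. Most points lie near 0, Slc2a1 lies farthest right (0.68 and 0.44), and the 5 filled points of GRflox and 2 of CardioGRKO are in the glucose entry and glycogen rows.

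Whether the genotype difference depended on time was tested by the interaction. It passed for 0 of the 32 in edgeR and 0 in DESeq2, beside 0.186% of all genes (26), and 2 of the 32 had an unadjusted p under 0.05. These were Gbe1 (-0.24 ± 0.08, unadjusted p = 0.00462, adjusted p = 0.418) and Slc2a4 (-0.13 ± 0.06, unadjusted p = 0.0453, adjusted p = 0.822). For Slc2a1 the interaction was -0.24 ± 0.13 (adjusted p = 0.879, 95% interval -0.51 to 0.02). The 7 genes called between genotypes at ZT12 and not at ZT0 (Gbe1, Ldha, Pdha1, Pdk1, Pdp1, Slc2a1 and Slc2a4), the 2 called at ZT0 and not at ZT12 (Pygb and Tpi1), and the time differences called in GRflox alone are thus not shown to differ.

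Of 79 other genes of glucose metabolism, listed by pathway with earlier results of these data known, 73 were tested. At ZT0, 16 of them passed between genotypes (3 higher, 13 lower) and at ZT12, 23 (3 higher, 20 lower), which are 21.9% and 31.5% of them beside 14.7% and 21.1% of all genes. In the list of glycolysis and its shuttles, 6 of 16 were lower at ZT0 and 8 of 16 at ZT12, with 0 higher. These are 37.5% and 50% of them, beside 7.35% and 10.7% of all genes called lower. Got1, the cytosolic aminotransferase of the malate-aspartate shuttle, fell from 712 ± 35.8 to 497 ± 24.6 CPM at ZT0 and from 799 ± 49.0 to 476 ± 27.3 CPM at ZT12 (-0.52 ± 0.05, adjusted p = 1.02e-07 and -0.75 ± 0.05, adjusted p = 1.80e-10 in edgeR). Pfkfb1, which makes and removes the activator of phosphofructokinase, fell too (-2.39 ± 0.24 and -2.08 ± 0.21).

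Of the pyruvate and lactate list, 2 of 16 were higher and 4 lower at ZT0, and 2 were higher and 7 lower at ZT12. These are 37.5% and 56.25% of them, beside 14.7% and 21.1% of all genes. Of all genes, 7.36% were higher and 7.35% lower at ZT0, and 10.4% and 10.7% at ZT12. Slc16a1, the lactate and pyruvate transporter MCT1, rose from 233 ± 15.2 to 298 ± 17.9 CPM at ZT0 (0.36 ± 0.06, adjusted p = 0.000113 in edgeR). Pcx, the pyruvate carboxylase, fell at ZT12 (-0.44 ± 0.06, adjusted p = 8.81e-06). Of the other glycogen genes, 2 of 22 were lower at ZT0 and 4 at ZT12, and 0 were higher. These are 9.09% and 18.2% of them, below the 14.7% and 21.1% of all genes, and so no result about that list. Among those at ZT12 was Ppp1r3a, the muscle relative of Ppp1r3c (-0.55 ± 0.07, adjusted p = 5.27e-06). At ZT12 Ppp1r3a was thus lower and Ppp1r3c higher. By time, Ppp1r3a rose from 210.2 ± 16.6 to 307 ± 33.3 CPM in GRflox (0.55 ± 0.07, adjusted p = 7.92e-06) and stood at 198 ± 9.44 and 210.2 ± 21.4 CPM in CardioGRKO (0.08 ± 0.07, adjusted p = 0.552). Its interaction, -0.46 ± 0.10, adjusted p = 0.0657, was the smallest p of the 73 and did not pass. Between times, 19 of the 73 passed in GRflox (13 higher, 6 lower at ZT12) and 6 in CardioGRKO (4 higher, 2 lower), which are 26.0% and 8.22% of them beside 17.3% and 9.17% of all genes. Pgm2l1, a relative of phosphoglucomutase, and Pfkfb3, of the same family as Pfkfb1, were higher at ZT12 in both genotypes. Their changes were 0.59 ± 0.08, adjusted p = 2.30e-05 and 0.52 ± 0.09, adjusted p = 0.000249 for Pgm2l1 and 0.62 ± 0.13, adjusted p = 0.00212 and 0.59 ± 0.14, adjusted p = 0.00856 for Pfkfb3, in GRflox and CardioGRKO in turn.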

How the data were processed

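Poly(A)-enriched RNA from mouse left ventricle was sequenced in 20 libraries (4 groups of 5) as read pairs of 75 bases, per the labels' protocols. The authors deposited raw counts for each gene, as whole numbers without normalization. The submitters' processing notes name STAR 2.5.1, featureCounts of Subread 1.5.1, DESeq2 1.38.3 and the build mm10 (GRCm38). No label or header states the use of strand, the annotation or the treatment of reads that match several loci. Overlapping genes and near copies can share or lose reads.

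From these, counts of a gene listed at more than 1 locus were added up by Entrez identifier (24918 lines, 24059 genes, of which 99.6% matched the reference table and 4768 had no count). The test was edgeR 4.0.16 (R 4.3.3), quasi-likelihood F-test, TMM factors (0.961 to 1.04), filterByExpr (minimum count 10, minimum total 15, 14007 genes), with 1 model of 4 group means over 20 libraries. P-values were adjusted by Benjamini-Hochberg over all genes tested within each contrast, at a threshold of 0.05. A standard error is the log2 fold change over the square root of F. CPM are TMM-scaled, and per-kilobase levels divide by the longest APPRIS principal transcript of GENCODE M21. Promoter windows came from RefSeq. Scripts were tested on simulated counts. Between replicates of a group the chi-square per gene was 4.22 to 21.0, above sampling noise, so none was counted as the same library sequenced again. This does not show that replicates came from different animals. Alternatives were DESeq2 size factors, DESeq2 1.42.0, no filter, only the groups compared, a replicate block, thinning to 5854462 counts and leaving out each library.

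The genes and the lists of pathway genes and markers were chosen with earlier results of these data known. Values per library were given for genes called with a log2 change of at least 0.4 and for isoform pairs. Of other pathway genes, at most the 6 with the smallest p in each contrast were named, and of markers at most 3 per list. Some pathway genes that meet this rule are not reported here.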

Additional observations from a re-analysis of the deposited data

Results flagged for a closer look

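In 7 of the 128 groups of 5 values tested (32 genes in 4 groups), 1 library stood apart from the other 4 by Dixon's ratio, above its 95% critical value of 0.71, and chance alone flags about 1 group in 20. A pair of libraries holds 5 of the 7.

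GRflox ZT0 replicate 5 was the lowest for Gapdh, at 2207 CPM beside 2739 to 2791 CPM in the other 4, and for Pgam2, at 636 CPM beside 738 to 751 CPM. GRflox ZT12 replicate 4 was the highest for Tpi1, at 768 CPM beside 726 to 734 CPM. It was also the highest for Ldha, at 549 CPM beside 459 to 478 CPM, and for Ldhb, at 2195 CPM beside 2036 to 2080.0 CPM. The last library lay above its group, away from CardioGRKO, for Ldha and Ldhb. Without it the fall of Ldhb at ZT12 kept its call, and that of Ldha lost it.

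Pfkl stood at 205 CPM in CardioGRKO ZT12 replicate 3, beside 159 to 171 CPM in the other 4. Pdk2 stood at 1090.1 CPM in GRflox ZT12 replicate 1, the lowest of its group beside 1257 to 1303 CPM, and still above every CardioGRKO library at that time.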

How the results depend on the processing

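Of the 36 calls of a gene in a contrast, 22 held in every alternative and 14 were lost in at least 1, and none reversed. Of 124 results that did not pass, 7 passed in some alternative. The number called at ZT0 between genotypes was 12 and ran from 9 to 12 over the alternatives that keep all libraries, and from 7 to 10 with 1 library left out. At ZT12 it was 17, with 13 to 17 in both kinds. By time it was 5 in GRflox (4 to 6, and 3 to 6 with 1 library left out) and 2 in CardioGRKO, where it was 1 with only the groups compared in the fit and 1 to 2 with 1 library left out. The interaction passed for 0 genes throughout. The cause of these shifts was not tested.

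Whether the replicate numbers pair the libraries was not settled. The correlation of same-numbered libraries ran from -0.27 to 0.23, with a median of 0.029 beside -0.0046 for other numbers. Among 5 numbers, 35% of libraries were closest to their own. With the replicate block the counts were 11, 16, 6, 2 and 0 in the order genotype at ZT0, at ZT12, time in GRflox, in CardioGRKO and interaction, and the calls of Dlat at ZT0 and Slc2a1 at ZT12 were among those that ended. Thinning moved the counts over all genes from 2060 to 1349, 2951 to 1885, 2423 to 1466 and 1284 to 808. For the interaction, the 26 genes became 71 in DESeq2, and between 16 and 17 without GRflox ZT0 replicate 2 or 4, GRflox ZT12 replicate 4 or CardioGRKO ZT12 replicate 1. Slc2a1, Pdp2 and Pgam1 had as few as 131, 195 and 124 counts in a library, which limits their precision.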

Other observations

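Of 8 genes of the pentose phosphate pathway, which branches from glycolysis after hexokinase and makes NADPH and ribose, 1 passed between genotypes at ZT0 and 2 at ZT12 (12.5% and 25%), near the 14.7% and 21.1% of all genes and so no result about the list. Pgd, the phosphogluconate dehydrogenase, was higher in CardioGRKO at both times (0.18 ± 0.05, adjusted p = 0.0183 at ZT0 and 0.30 ± 0.05, adjusted p = 0.000126 at ZT12 in edgeR). H6pd, the form of the endoplasmic reticulum, rose at ZT12 in GRflox (0.25 ± 0.06, adjusted p = 0.00269) and was lower in CardioGRKO at ZT12 (-0.30 ± 0.06, adjusted p = 0.000282). Rpia, the ribose phosphate isomerase, fell at ZT12 in GRflox (-0.39 ± 0.09, adjusted p = 0.00431) and in CardioGRKO (-0.29 ± 0.09, adjusted p = 0.0464).

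Of 11 further genes of glucose transport and its control, 5 passed by time in GRflox (45.5%, beside 17.3% of all genes). In CardioGRKO 1 passed (9.09%, beside 9.17%). Of the 5 in GRflox, 2 were higher at ZT12, among them Txnip, and 3 were lower, among them Arrdc4. Arrdc4, a relative of Txnip that restrains glucose uptake, fell at ZT12 in CardioGRKO from 14.2 ± 2.23 to 10.1 ± 0.985 CPM (-0.51 ± 0.12, adjusted p = 0.0071 in edgeR) and in GRflox from 13.7 ± 1.39 to 10.7 ± 2.04 CPM (-0.35 ± 0.12, adjusted p = 0.0405). Phkg2, a catalytic subunit of phosphorylase kinase, was higher at ZT12 in CardioGRKO (0.32 ± 0.09, adjusted p = 0.0289), with overlapping libraries. Pgd and Txnip were chosen after their values were seen.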
